A study of Mus musculus with 2 samples.

Results

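The 10 genes described here, Pecam1, Emcn, Tek, Tie1, Kdr, Ehd3, Plvap, Robo4, Ramp2 and Nos3, mark the endothelial cells that line kidney blood vessels. They were taken by symbol from the array's annotation, and each had 1 named probe with a reading above 0 in both arrays, so all 10 were measured, among 9985 measured genes in all. Kidney RNA came from a control (1 Mxi1 +/+ mouse) and a mutant (1 Mxi1 -/- mouse), whose name marks loss of both copies of Mxi1, a partner of MAX that opposes MYC. Both samples carry the label 1Y, and each was read on 1 single-colour array made for biotin-labelled cRNA. The labels used here give no strain, sex or deleted exon, and 1 mouse per genotype leaves no spread between animals, so no difference below has a p-value or a standard error. Mxi1 itself (probe 13348) had a reading of 4.31 in the control and 1.69 in the mutant kidney, 2.54-fold lower, the direction its label calls for. A signal remained in the mutant, higher than the 0.935 median of its array, and the place of the probe relative to the deleted part is not given in the sources used here, so it checks the label in direction only.

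The kidney holds several vascular beds. Glomerular capillaries filter plasma and depend on vascular endothelial growth factor (VEGF) made by podocytes, which acts on the receptor KDR, while EHD3, a membrane-trafficking protein, is found in the endothelium of the glomerulus rather than of other renal vessels. Peritubular capillaries take back what the tubules reabsorb and carry fenestrae closed by diaphragms built from PLVAP. Angiopoietins act on all these vessels through the receptor TEK (also called TIE2), with TIE1 as its partner. In whole kidney RNA, fewer endothelial cells and less endothelial RNA per cell cannot be told apart.

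The glomerular genes Kdr and Ehd3 and the fenestrated capillary gene Plvap read slightly higher in the Mxi1 -/- kidney, and 6 of the 7 general endothelial genes lower. Wider lists for these capillary beds did not share that direction throughout: beside Plvap 5 of 7 other genes were lower, and beside Kdr and Ehd3 2 of 6, Gata5 and Lpl. Values are deposited intensities without a stated unit, and each difference is the mutant minus the control log2 reading, after both arrays were centred on their medians. Of the 10 genes 4 were higher and 6 lower, with a median of -0.14, against a median of -0.05 over all measured genes, of which 44.5% were higher. At or above the median level of all probes the split was 4 to 4, where 40.1% of genes were higher and 59.9% lower. The 4 higher genes were Kdr, Plvap, Ehd3 and Tie1, and their differences ran up to 0.38. The 6 lower genes were Pecam1, Emcn, Tek, Nos3, Ramp2 and Robo4, and theirs ran down to -1.36. Only Pecam1 and Emcn were at least 1.5-fold apart, both on the lower side. Among all measured genes 22.6% were that far apart and 11.9% were that far lower, so 2 of 10 is near the share of genes in general. Pecam1 alone passed 2-fold, as did 11.4% of all measured genes.

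**Figure D1:**
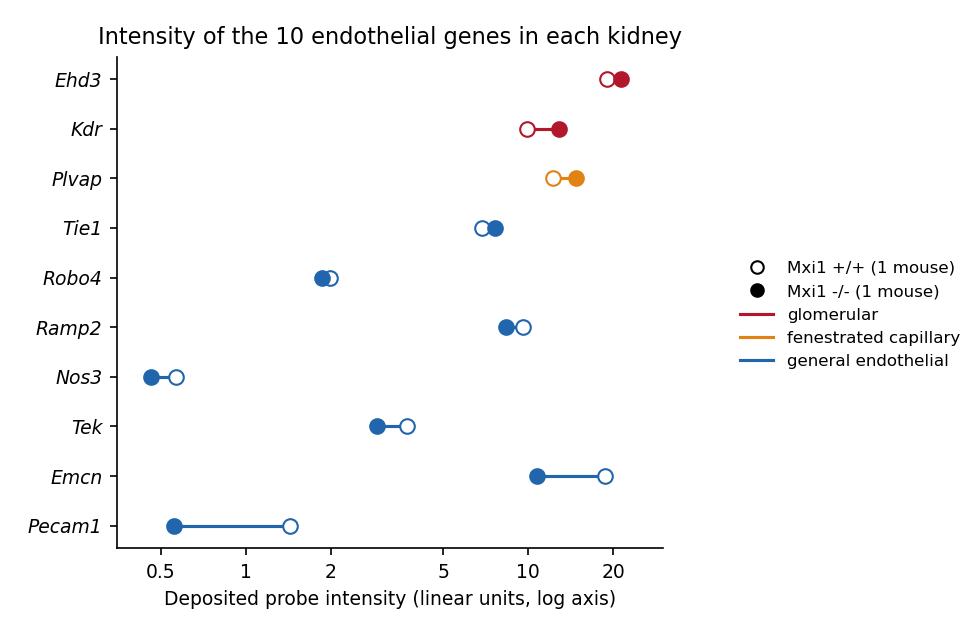
Deposited intensity (linear units on a log axis) of the 10 endothelial genes in the Mxi1 +/+ kidney (open circles) and the Mxi1 -/- kidney (filled circles), 1 mouse each, coloured by class. The filled circle lies to the right for Ehd3, Kdr, Plvap and Tie1 and to the left for the other 6 genes, furthest for Pecam1 and Emcn.

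Level decides how such a difference reads. At or above the median level of all probes, 7.67% of 5737 genes were at least 1.5-fold apart (5.26% lower and 2.41% higher), and 8 of the 10 genes lie in that range. Below it, 42.8% of 4248 genes were that far apart, and Pecam1 and Nos3 lie there. The only error that these arrays allow is technical. Where a gene had 2 probes that both reached the median level (38 genes), its log2 differences varied with a standard deviation of 0.17 per probe, and where both were dimmer (39 genes) with 0.97 per probe. Probes of a gene may bind different transcripts, and this spread holds no variation between animals. Of the 8 brighter genes, 5 (Emcn, Kdr, Tek, Plvap and Ramp2) differed by more than the per-probe value and 3 (Ehd3, Tie1 and Robo4) by less. Many other genes at this level did so too: 30.1% were as low as Ramp2 or lower and 11.3% as high as Plvap or higher. Passing that value therefore does not set a gene apart from genes in general.

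**Figure D2:**
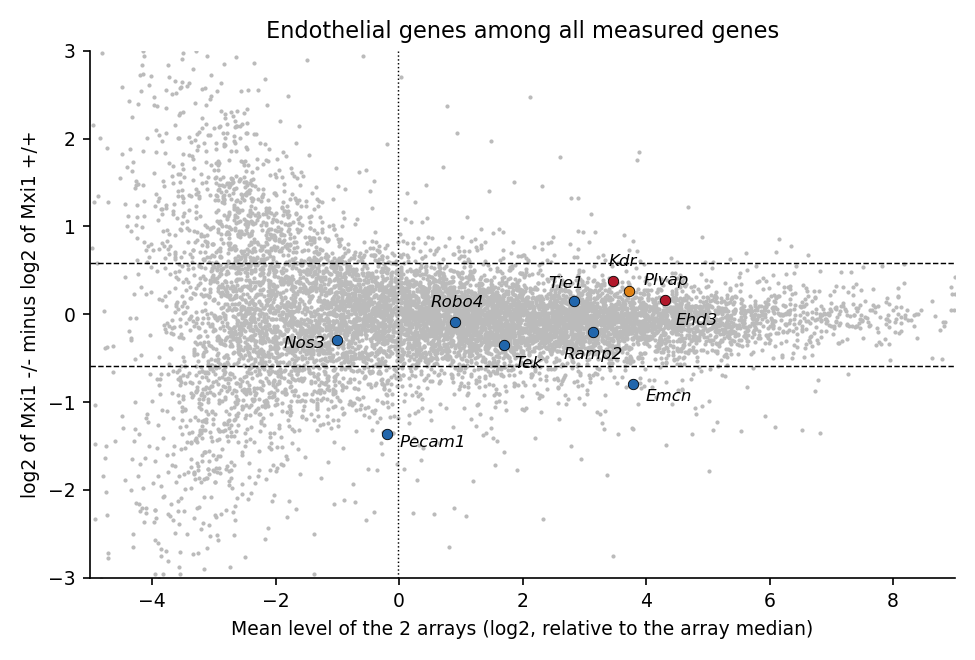
Difference between the kidneys (log2 of Mxi1 -/- minus log2 of Mxi1 +/+) against the mean level of the 2 arrays (log2, relative to the array median) for all measured genes (grey) and the 10 endothelial genes (red glomerular, orange fenestrated capillary, blue general endothelial). Dashed lines mark 1.5-fold and the dotted line the median level, and 169 genes lie outside the axes. Emcn lies below the lower dashed line in the range where 7.67% of genes pass either line, and Pecam1 lies just under the median level, where the grey cloud widens.

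Emcn encodes endomucin, a sialomucin that coats the surface of capillary and venous endothelium and hinders leukocyte adhesion. Its probe (number 16474, gene ID 59308) read 18.6 in Mxi1 +/+ and 10.7 in Mxi1 -/-. It was 1.73-fold lower (log2 -0.79) in the Mxi1 -/- kidney, and 2.53% of genes at this level (at or above the median) were as low or lower. Its difference is larger than the per-probe standard deviation of 0.17. Within the arrays, which needs no scaling between them, Emcn was 1.94-fold lower relative to Ehd3, 2.26-fold lower relative to Kdr and 2.08-fold lower relative to Plvap. Emcn and the 3 genes set against it lie at opposite ends of the 10 and were paired after their values were seen, so these ratios are the wide end of the range, and what sets them was not tested.

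The start region of Emcn is printed because Emcn stands furthest below the control among the brighter genes. It covers 250 bases before to 50 after the start in RefSeq, build GRCm38.p6, at chr3:137340828-137341127 on the plus strand. Capitals mark GGAA, the core bound by ETS factors that drive endothelial genes, or its reverse complement.
Emcn: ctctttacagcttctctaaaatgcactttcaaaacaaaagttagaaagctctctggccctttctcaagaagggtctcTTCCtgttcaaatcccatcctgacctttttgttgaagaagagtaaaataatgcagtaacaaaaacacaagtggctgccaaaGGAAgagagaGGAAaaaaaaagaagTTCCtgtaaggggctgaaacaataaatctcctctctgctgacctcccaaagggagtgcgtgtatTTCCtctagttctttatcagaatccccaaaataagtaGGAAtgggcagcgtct

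Pecam1 encodes CD31, the adhesion molecule of endothelial junctions, which platelets and leukocytes also carry. Its probe (number 453, gene ID 18613) read 1.43 in Mxi1 +/+ and 0.555 in Mxi1 -/-, above that array's noise floor of 0.156. The reading was 2.57-fold lower (log2 -1.36), and 7.02% of the genes below the median level were as low or lower. The difference exceeds the per-probe standard deviation of 0.97 among dim probes. That value pools all levels below the median, and Pecam1 lies just under the median level, so it gauges this difference only roughly. The 1.37 expected between 2 such probes is for a gap between probes, not for the difference of 1 probe. With the array median added to each value before log2, it shrank to -0.67. Of 14 measured genes of platelets and leukocytes, 8 were higher and 6 lower (median 0.01), and their summed intensity was 37.2 in Mxi1 +/+ and 47.9 in Mxi1 -/-. Of the 10 above the floor in both arrays, 7 were higher and 3 lower. The complement genes C1qa, C1qb and C1qc of macrophages read 1.57-fold, 1.49-fold and 1.23-fold higher, and the B cell receptor chain Cd79a 1.04-fold higher. The platelet integrin Itga2b, counted among the higher genes, was below the noise floor of each array, so its direction is not resolved. The leukocyte antigen Ptprc read 0.448 in the control kidney and was below the floor in the mutant, at least 2.87-fold lower. The leukocyte integrin Itgam read 0.255 and was below the mutant floor too, at least 1.64-fold lower, and the platelet gene Gp1bb read 0.148 in the control and was below the floor in the mutant, with no fold resolved. These 4 genes were singled out after their values were seen. The part of these cells in the Pecam1 reading was not tested.

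The readings of the angiopoietin receptors lay on opposite sides of the control, though that of Tie1 by less than the per-probe standard deviation. Tek, the receptor that angiopoietins bind, read 3.73 in Mxi1 +/+ and 2.92 in Mxi1 -/- (probe 13631, gene ID 21687), which is 1.28-fold lower (log2 -0.35). Tie1, which binds no angiopoietin with high affinity and modulates TEK, read 6.86 and 7.64 (probe 13315, gene ID 21846), which is 1.11-fold higher (log2 0.16). The ratio of Tek to Tie1 was thus 1.42-fold lower in Mxi1 -/- (0.51 on the log2 scale). The standard deviation of 0.24 at these levels is between 2 probes of the same gene, so it does not gauge a gap between 2 different genes. Of genes at or above the median level, 15.4% were as low as Tek or lower and 19.5% as high as Tie1 or higher, so neither stands apart. Whether their ratio stands apart from that of other gene pairs was not tested.

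The start regions of this receptor pair are printed side by side since their readings lay on opposite sides of the control, Tie1 within technical error. Tek lies at chr4:94739039-94739338 on the plus strand and Tie1 at chr4:118489800-118490099 on the minus strand (GRCm38.p6, RefSeq), with GGAA or its reverse complement in capitals.
Tek: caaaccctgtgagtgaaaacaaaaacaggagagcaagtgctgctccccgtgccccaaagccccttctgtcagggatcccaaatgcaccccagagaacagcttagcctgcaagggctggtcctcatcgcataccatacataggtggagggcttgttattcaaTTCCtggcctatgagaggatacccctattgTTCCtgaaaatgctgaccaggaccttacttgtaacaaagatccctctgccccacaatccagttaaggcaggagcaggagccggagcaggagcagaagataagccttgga
Tie1: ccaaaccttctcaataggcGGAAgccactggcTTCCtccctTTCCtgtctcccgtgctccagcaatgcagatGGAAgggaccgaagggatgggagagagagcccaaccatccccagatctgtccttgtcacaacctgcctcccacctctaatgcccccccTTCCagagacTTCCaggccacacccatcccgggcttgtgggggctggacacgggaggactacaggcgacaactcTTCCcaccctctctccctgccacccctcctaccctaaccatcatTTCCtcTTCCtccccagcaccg

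Among the ligands, Angpt2, the context-dependent antagonist that endothelial cells release, read 3.22 in the control and 1.96 in the mutant kidney, 1.64-fold lower. Angpt1, the agonist from perivascular cells and podocytes, was dim, at 0.204 and 0.168. Angpt4 read 0.303 in the control kidney and was below the floor in the mutant, at least 1.95-fold lower. Angpt2 was thus past 1.5-fold on the lower side. Angpt1 also read lower (log2 -0.28), but its mutant reading lay near the floor of 0.156. That difference is well inside the per-probe standard deviation of 0.97 of dim probes, so its direction is not resolved.

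The phosphatase Ptprb, which dephosphorylates TEK, read 5.28 and 7.12, 1.35-fold higher. The adaptors Grb7 and Grb14, which bind activated receptors including TEK, were 1.05-fold and 1.26-fold lower. Svep1, an extracellular protein that binds TIE1, read 0.130 and 0.192, near the floor. Of the relatives, Angptl4, a secreted inhibitor of lipoprotein lipase made in fat and other tissues, read 15.9 and 6.45, 2.47-fold lower, and Angptl1 was dim at 0.127 and 0.259. Of the 9 measured genes of this axis other than Tek and Tie1, 3 were higher and 6 lower, where 55.5% of all measured genes were lower. Their median of -0.28 is the value of the dim Angpt1. For the whole list the median, also -0.28, rose to -0.07 with the array median added before log2.

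Kdr encodes VEGF receptor 2, the main signalling receptor for VEGF-A. Its probe (number 10872, gene ID 16542) read 9.86 in Mxi1 +/+ and 12.8 in Mxi1 -/-. It was 1.30-fold higher (log2 0.38), and 5.87% of genes at or above the median level were as high or higher. Kdr was the furthest of the 10 genes on the higher side. Ehd3, the other glomerular gene, read 19.0 and 21.3 (probe 14849, gene ID 57440), which is 1.12-fold higher (log2 0.16). That is less than the per-probe standard deviation, and 18.9% of genes at that level were as high or higher.

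The start region of Kdr, the gene furthest above the control, lies at chr5:75978406-75978705 on the minus strand (GRCm38.p6, RefSeq). Capitals again mark GGAA or its reverse complement.
Kdr: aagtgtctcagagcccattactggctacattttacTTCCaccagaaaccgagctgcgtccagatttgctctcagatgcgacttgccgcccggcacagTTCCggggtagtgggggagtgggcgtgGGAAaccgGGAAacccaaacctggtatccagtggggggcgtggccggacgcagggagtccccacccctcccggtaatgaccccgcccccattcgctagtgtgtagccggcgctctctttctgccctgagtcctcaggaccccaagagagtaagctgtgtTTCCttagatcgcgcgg

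Start regions were held for 6 of the 10 genes: Emcn, Tek, Tie1, Kdr, Ehd3 and Robo4. GGAA occurred in all 6, as it does in 96.0% of the 32851 start regions of 300 bases, at 6 places in Emcn, 2 in Tek, 9 in Tie1, 5 in Kdr, 4 in Ehd3 and 4 in Robo4. The longer AGGAAG, which overlaps GGAA, occurred in 4 of 6 (Emcn, Tie1, Ehd3 and Robo4) and in 35.4% of all. The E-box CACGTG, a site shared by MYC, MXI1 and their partner MAX, occurred in 0 of 6 and in 7.15% of all. Both strands were searched, and these letter counts describe the windows only. The genes with AGGAAG include readings on both sides of the control.

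The other genes of the VEGF axis went both ways. Of 14 measured genes of the axis other than Kdr, 6 were higher and 8 lower, with a median of -0.16. Kdr included, the median was -0.10, and it turned to 0.16 with readings raised to the noise floor. Among the ligands, Vegfa, the podocyte and tubule factor that binds KDR, read 5.87 and 4.56, 1.29-fold lower. Vegfb, a ligand of FLT1, read 13.2 and 9.22, 1.43-fold lower. Vegfd was 1.16-fold lower, while the dimmer Vegfc and Pgf were 1.13-fold and 1.20-fold higher.

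The co-receptor Nrp1, which presents VEGF-A to KDR, read 8.31 in the control and 5.15 in the mutant kidney, 1.61-fold lower. Flt4, the receptor for VEGF-C and VEGF-D in lymphatic and fenestrated endothelium, read 3.51 and 2.36, 1.49-fold lower. Flt1, the decoy-like VEGF receptor of endothelium, read only 0.138 and 0.169, so its probe says little here. Of the signalling proteins, Plcg1 was 1.21-fold lower and the adaptor Sh2d2a 1.17-fold higher. The semaphorins Sema3c and Sema3f were 1.39-fold and 1.20-fold higher, Sema3f on readings of 0.1445 and 0.1736, near the floor. Sema3e was 1.23-fold lower, and Sema3a, named after its values were seen, was under the floor in both arrays. The axis as a whole was thus split, with lower readings for Vegfa, Vegfb, Vegfd, Nrp1, Flt4, Plcg1 and Sema3e and higher ones for Vegfc, Pgf, Flt1, Sh2d2a, Sema3c and Sema3f. Of the higher ones, Flt1 and Sema3f were near the floor.

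Other genes known from glomerular endothelium were split. Gata5, a transcription factor, read 4.47 and 2.97, a difference of -0.59 on the log2 scale. Lpl, lipoprotein lipase, which fat cells also make in quantity, read 158 and 126, 1.25-fold lower. Of the 6 measured genes of this list other than Ehd3 and Kdr, 4 were higher and 2 lower (median 0.07), and the higher ones, named after their values were seen, were the dimmer Sost, Smad6, Fbln2 and Pi16, at up to 1.24-fold for Sost. Relatives of Ehd3 were lower: Ehd1 1.06-fold and Ehd4 1.31-fold, the latter reading 15.4 and 11.7. Podocyte genes, from the other side of the glomerular filter, were higher in 4 and lower in 6 of 10, with a median of -0.03 that turned to 0.03 after quantile normalization and after lowess. Among them Tcf21 read 24.0 and 23.6, Cdkn1c was 1.76-fold lower, Dach1 1.97-fold higher, and Nes and Foxc2 were within 1.05-fold.

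Plvap, which builds the diaphragms of fenestrae and caveolae, read 12.3 in Mxi1 +/+ and 14.7 in Mxi1 -/- (probe 4758, gene ID 84094). It was 1.20-fold higher (log2 0.26), and 11.3% of genes at or above the median level were as high or higher. Its difference lay between those of Ehd3 and Kdr, within 1.09-fold of Kdr and 1.07-fold of Ehd3. The 7 other measured genes listed for fenestrated and peritubular capillaries did not follow it: 2 were higher and 5 lower, with a median of -0.17. Cd36, the fatty acid receptor of capillaries and fat cells, read 3.78 and 1.57, 2.41-fold lower. Igfbp5 read 0.700 and 0.338, 2.07-fold lower, and Igfbp3 and the lipid phosphatase Plpp1 were 1.11-fold and 1.13-fold lower.

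The remaining general endothelial genes were closer to the control. Ramp2, the subunit that makes the calcitonin receptor-like receptor an adrenomedullin receptor, read 9.61 and 8.35 (probe 15696, gene ID 54409), 1.15-fold lower (log2 -0.20). Robo4, the endothelial roundabout receptor that steadies the vessel barrier, read 1.98 and 1.86 (probe 6746, gene ID 74144), 1.06-fold lower (log2 -0.09). Among genes at or above the median level 30.1% were as low as Ramp2 or lower and 46.2% as low as Robo4 or lower, so both sit within the bulk of genes. Nos3, the endothelial nitric oxide synthase, read 0.565 and 0.460 (probe 2787, gene ID 18127), 1.23-fold lower (log2 -0.29). It is dim, its difference is well inside the per-probe standard deviation of 0.97 at that level, and 32.3% of genes there were as low or lower.

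In the adrenomedullin axis beside Ramp2, no gene reached 1.5-fold. The vasodilator peptide Adm read 1.04 and 0.720, 1.45-fold lower, its receptor Calcrl 0.934 and 0.767, 1.22-fold lower, and Ramp3, the alternative subunit, 1.09 and 0.900, 1.21-fold lower. Crcp was 1.10-fold and Calcr 1.03-fold lower, while Ackr3, a scavenging receptor for adrenomedullin, was 1.17-fold higher and the dim Ramp1 1.29-fold higher. Of these 7 genes other than Ramp2, 2 were higher and 5 lower (median -0.14), where 55.5% of all measured genes were lower. Adm, Calcrl, Ramp3 and Ramp1 lie below the median level, where the per-probe standard deviation was 0.97. Beside Robo4, the netrin receptor Unc5b, which ROBO4 binds, was 1.20-fold lower, the adhesion adaptor Pxn 1.20-fold higher and the dim exchange factor Vav2 1.24-fold higher.

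Caveolae, the membrane pits in which NOS3 is held inactive, gave the widest gap near Nos3. Cav1, their main coat protein, read 4.46 in the control and 1.82 in the mutant kidney, 2.45-fold lower, and its partner Cav2 read 5.40 and 3.72, 1.45-fold lower. Cav3, the muscle form, was dim and 1.22-fold lower. The NOS3-binding protein Nosip was 1.32-fold lower, the inducible synthase Nos2 1.08-fold higher, and arginase Arg2, which competes for arginine, 1.11-fold higher. Nos1 was below the floor in the control kidney and read 0.197 in the mutant, near that array's floor of 0.156. Against the control floor it was at least 1.93-fold higher, a bound that rests on this dim reading. Of the genes that make, sense or end the signal, Gucy1a1 was 1.74-fold higher and dim, Gucy1b1 1.01-fold lower, Ddah2 1.22-fold higher and the dim Pde5a 1.22-fold higher. In all, 6 of the 11 other genes of the list were higher and 5 lower (median 0.11), and Cav1 alone of those above the floor was past 1.5-fold on the lower side.

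Set side by side, the classes were 1.48-fold apart. The mean of Ehd3 and Kdr was 0.27, and the median of the 7 general genes was -0.29, of which 6 were lower and Tie1 alone higher. That median is the value of the dim gene Nos3. The gap of 0.57 on the log2 scale does not depend on centring. It was 0.69 with the mean of the general genes and 0.47 with only those at or above the median level, both computed after the data were seen. Plvap was 0.56 above the general median. With 2 genes in the glomerular class, 1 of them within technical error of the control, and 1 mouse per genotype, this gap describes these 2 libraries. The wider lists without the 10 genes lay closer together, with a median of 0.07 for glomerular and -0.07 for general endothelial surface genes.

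A wider list of endothelial surface genes stayed near the control. Of 15 measured 5 were higher and 10 lower, with a median of -0.07, and among genes above the floor in both arrays 1, Cd151, passed 1.5-fold (1.60-fold lower). The junction protein Jam3 read 17.5 and 15.5, Tm4sf1 read 14.0 and 13.9, the C-type lectin Cd93 3.18 and 3.39, Mmrn2, a matrix protein of vessels, 3.25 and 2.82, and Clec14a 2.08 and 1.55. Cdh5, VE-cadherin, the defining junction protein of endothelium and named after its values were seen, had no usable pair, with readings of -0.0393 in Mxi1 +/+ and 0.239 in Mxi1 -/-. The 10 genes themselves were above the noise floor in both arrays.

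Vessel subtype lists were mostly lower. All 7 measured venous and lymphatic genes were lower, with a median of -0.46, where 55.5% of all genes were lower. With the array median added before log2 that median shrank to -0.09. None of the 7 passed 1.5-fold, and Nr2f2, Pdpn and Ccl21a were 1.03-fold, 1.07-fold and 1.05-fold lower. Flt4 and the venous receptor Ephb4 were 1.49-fold and 1.45-fold lower. Of 13 arterial genes 4 were higher and 9 lower (median -0.15). Of the 10 above the floor in both arrays, 3 were higher and 7 lower. Among them Unc5b was 1.20-fold lower, Sox17 1.08-fold lower, the gap junction protein Gja4 1.16-fold higher, Notch4 1.10-fold lower and the Notch ligand Jag2 1.29-fold lower, and the dim Hey2 was 1.93-fold higher.

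Transcription factors of endothelium were higher in 8 and lower in 14 of 22 (median -0.10), where 55.5% of all measured genes were lower. Of the 17 above the floor in both arrays, 7 were higher and 10 lower. The brightest were Tal1 at 1.02-fold lower, the flow-induced Klf2 at 1.22-fold lower, Foxo1 at 1.46-fold lower and Klf4 at 1.40-fold higher. The furthest apart above the floor was Hhex, at 2.30-fold lower on readings of 0.446 and 0.194, followed by Elk3 at 1.55-fold lower. Fli1, an ETS factor, lay under the floor in Mxi1 +/+ and read 4.66 in Mxi1 -/-, at least 45.6-fold higher. It was singled out after its values were seen, and rests on 1 probe per array.

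Genes of cells around the vessels gave no common direction. Of 14 pericyte and smooth muscle genes 8 were higher and 6 lower, with a median of 0.04 that turned to -0.0059 after quantile normalization. The contractile genes Cnn1, Myh11 and Acta2 were 2.96-fold, 1.75-fold and 1.44-fold lower, Tagln was 1.05-fold higher, Anpep read 16.2 in both, and the dim Notch3 1.76-fold higher. The pericyte receptor Pdgfrb, singled out after its values were seen, read 3.08 and 4.87, 1.58-fold higher.

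Fat and interferon genes differed between the kidneys by more than the endothelial genes did. All 10 measured adipocyte genes were lower in Mxi1 -/- (median -1.64), where 55.5% of all measured genes were lower. Among them Lep, named after its values were seen, read 4.86 and 4.83, only 1.01-fold lower. The summed intensity of the 10 was 419 in Mxi1 +/+ and 216 in Mxi1 -/-, most of it from Fabp4 and Lpl. The fatty acid binding protein Fabp4, shared by fat cells and capillary endothelium, read 183 and 72.1, 2.54-fold lower. The lipid droplet gene Cidea was 19.8-fold, carbonic anhydrase Car3 6.75-fold and the adipokine Retn 3.55-fold lower. The brown fat gene Ucp1, singled out after its values were seen, was below the floor in the mutant. Cd36 and Lpl stand in this list as well as in the capillary lists, and Cav1 and Angptl4 are also abundant in fat. The part of fat tissue in the lower Emcn, Pecam1, Cav1, Cd36 and Angptl4 readings was not tested. Of 21 interferon and MHC genes 20 were higher (median 1.32), where 44.5% of all measured genes were higher. The summed intensity of the 21 was 364 and 659. The interferon-induced GTPases Tgtp1, Iigp1 and Irgm1 were 10.3-fold, 8.68-fold and 2.33-fold higher, and the MHC chains H2-Aa and B2m 1.82-fold and 1.48-fold higher. Their part in the endothelial readings was not tested either. Kidney tubule genes, a check of the tissue, were all well above the floor, with 5 of 7 higher and a median of 0.07. The proximal tubule phosphate carrier Slc34a1 read 42.8 and 51.2, Slc22a6, Slc12a3 and Kap were 1.16-fold, 1.20-fold and 1.05-fold higher, and the water channel Aqp2 was 1.21-fold lower.

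No gene of the 10 changed sign under any of 6 other ways of processing. No centring, values raised to the floor and averaged probes shifted all 10 alike or not at all. Each gene has 1 probe, above the floor in both arrays, so these ways test little here. Emcn stayed between -0.81 and -0.73, Kdr between 0.35 and 0.45, Plvap between 0.24 and 0.33, Ehd3 between 0.15 and 0.22, Tie1 between 0.13 and 0.22 and Tek between -0.36 and -0.28. Ramp2 stayed between -0.22 and -0.14 and Robo4 between -0.10 and -0.06. The dim genes ranged more widely, Pecam1 from -1.39 to -0.67 and Nos3 from -0.36 to -0.10.

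**Figure D3:**
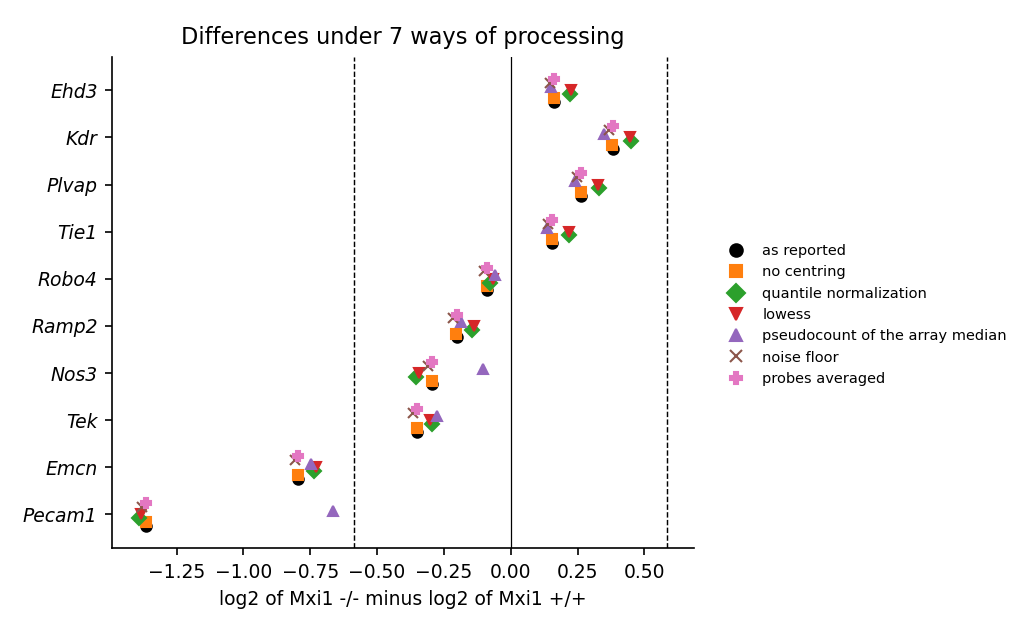
Difference of each of the 10 endothelial genes (log2 of Mxi1 -/- minus log2 of Mxi1 +/+) as reported (black circles) and under 6 other ways of processing, with dashed lines at 1.5-fold. No gene crosses 0, and Pecam1 and Emcn stay left of the lower dashed line throughout.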

How the data were processed

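Kidney RNA of 1 mouse per genotype was measured on 1 array each. The authors deposited a linear intensity for each of 20289 probes and array. Which software, background correction and scaling made it is not given in the sources used here. Per the labels' protocols, RNA was DNase-treated, amplified and labelled as cRNA with a kit for CodeLink arrays. The code -9999 (60 and 39 places) was read as missing. A noise floor, 3 times the root mean square of values below 0, came to 0.102 in Mxi1 +/+ and 0.156 in Mxi1 -/-. Where 1 reading lay under it, a fold is a bound against it. The platform annotation named 10349 probes, all with a RefSeq gene match, and 9940 are unnamed here. Intensities above 0 in both arrays (19663 probes) were converted to log2 and median-centred, and a gene with several probes took the brightest. The number of arrays limits the precision.

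The members and 18 gene lists were chosen with earlier results of these data known, and several lists share genes. Genes were named by a fixed rule: all members, all genes above a floor in the 6 pathway lists, and in other lists the 4 with the highest level and the 2 furthest apart above the floor. Other genes are marked as chosen after their values were seen. With 2 arrays no genes of like pattern were sought. The code was run on simulated data, where 99.5% of 200 genes among 9985 shifted by 1 on the log2 scale passed 1.5-fold. That shift is itself past the 1.5-fold line, so the result checks the code only. It gives no error rate for these arrays, where dim probes had a per-probe standard deviation of 0.97. Alternatives were no centring, quantile normalization, lowess (span 0.3), a pseudocount of the array median, values raised to the floor, and averaged probes. The work used pandas 2.3.3 and NumPy 2.4.6 under Python 3.11.15, with lowess from statsmodels 0.14.6 and figures from matplotlib 3.10.9.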

Additional observations from a re-analysis of the deposited data

How the results depend on the processing

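No paired analysis was possible because each genotype has 1 array and no test was run. The count of 4 higher endothelial genes and the 2 past 1.5-fold held under all 6 ways of processing, and 1, Pecam1, was past 2-fold. The gap between the glomerular and general genes ranged from 0.44 with the pseudocount to 0.64 after lowess. The count of genes at or above the median level past 1.5-fold, 440 as reported, was 247 with the pseudocount, which shrinks differences by construction, 112 at 2-fold and 2258 with no level filter. Of the 60 recomputed member differences 58 moved by less than 0.17, the per-probe standard deviation of brighter probes. The other 2 were the dim genes Pecam1, at -0.67, and Nos3, at -0.10, under the pseudocount, and both moved by less than the 0.97 of dim probes. Of 108 recomputed list medians 5 changed sign. The pseudocount moved the venous and lymphatic list from -0.46 to -0.09, the angiopoietin list from -0.28 to -0.07, the adipocyte list from -1.64 to -1.21 and the interferon and MHC list from 1.32 to 1.07. With values raised to the floor, which differs between the arrays, the VEGF axis went from -0.10 to 0.16 and the SLIT and ROBO axis from 0.09 to -0.10, the podocyte list went from -0.03 to 0.03 after quantile normalization and lowess, and the pericyte and smooth muscle list from 0.04 to -0.0059 after quantile normalization. Averaging probes could not move the members, each of which has 1 named probe. No centring and values raised to the floor shifted all members by the same small amount and left the gap between the classes unchanged. Dim probes limit Pecam1 and Nos3, and 10.3% and 15.7% of probes lay under the noise floors.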
